A study of Mus musculus with 15 samples.

Results

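The genes described here build, cut and cross-link the extracellular matrix of the liver: the collagens, the matrix metalloproteinases (MMPs), the tissue inhibitors of metalloproteinases (TIMPs) and the lysyl oxidases. Members were taken by gene name from the non-control probes of the array, as collagen chains (Col, a number, a and a number), Mmp genes, Timp1 to Timp4, and Lox with its Loxl1 to Loxl4 relatives. The array held 74 such genes among 22032 gene symbols, with 63 collagen probes and 44 of the other classes among 29522 named probes. They comprised 42 collagens, 23 MMPs, 4 TIMPs and 5 lysyl oxidases. Col6a3 had no probe under that name and was not analysed here.

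Livers of male CD1 mice were profiled on 1-colour Agilent arrays after chemical carcinogenesis and plasmid delivery. Group C mice received saline and an empty plasmid, group T mice received diethylnitrosamine (DEN, 25 μg/g at 15 days of age), a hepatocarcinogen, and the empty plasmid, and group G mice received DEN and the plasmid pcDNA3/CAG-HAGas1, which drives the growth arrest gene Gas1 from the CAG promoter. All mice thus had the same hydrodynamic tail vein injections, 50 μg of plasmid each week from week 28 to week 34, and were killed in week 35 by the study's methods, although the labels state an age of 10 weeks. Hydrodynamic delivery reaches a share of the liver cells and expression from such a plasmid is transient, so the RNA of group G is a mixture of transfected and other cells. Livers were not separated into tumour and surrounding tissue in the labels. Fewer cells of a type and less RNA per cell cannot be told apart in such bulk samples.

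The arrays numbered 4, 5 and 6 for C, T and G and lay on 2 slides. Arrays C3 and C4 carried 1 RNA code, as did T4 and T5, and within each pair the differences between arrays were smaller (SD of 0.146 and 0.143 on the log2 scale over 8493 genes) than in any other pair of their group (lowest 0.291 and 0.235). Each pair was therefore averaged and counted as 1 mouse, which left 3, 4 and 6 mice, written C1 to C3, T1 to T4 and G1 to G6. This count is inferred, since the sample titles number each array separately. The study's qRT-PCR used 4 control, 4 DEN-treated and 6 Gas1-transfected animals. Arrays G1 and G2, with different codes, differed by an SD of 0.213. The number of spots well above background ran from 15707 to 29765 per array. All 6 hepatocyte markers of the list used here were well above background on every array. The mouse Gas1 probe read 6.53 ± 0.20 in C, 6.54 ± 0.09 in T and 6.61 ± 0.11 in G (log2 intensity, mean ± SD), and the sources used here do not say whether it matches the delivered cDNA, so it does not check the labels of group G.

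Collagens are the main structural proteins of the matrix. Chains of collagen I and III assemble into the interstitial fibrils that hepatic stellate cells deposit in injured liver, collagen IV forms the sheet of basement membranes, and collagens VI and XIV link fibrils to their surroundings. MMPs cleave these proteins, TIMPs block the MMPs, and lysyl oxidases join collagen chains by oxidising their lysines. In fibrotic liver Col1a1 and Timp1 are commonly read as markers of scarring, and DEN given alone to young mice is known for producing tumours with little fibrosis.

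Collagens share the repeat Gly-X-Y, in which a glycine codon begins with GG at a fixed step of 9 bases wherever X and Y hold other residues and the helix is unbroken. The letters GGNNNNNNNGGNNNNNNNGG, searched on the strand of the probe as written, which is that of the mRNA, occurred in 6 of 63 collagen probes (9.52%), in 0 of 44 probes of the other classes and in 535 of all 55681 probes (0.961%). The probes below, all from the deposited array files, are shown since they hold this repeat and belong to collagens whose values are given further on; capitals mark the GG pairs of the longest run at that step, and positions are those the files give in build mm9.
Col13a1 (chr10:61330216-61330585): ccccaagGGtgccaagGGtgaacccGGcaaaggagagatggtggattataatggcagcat
Col14a1 (chr15:55347733-55347792): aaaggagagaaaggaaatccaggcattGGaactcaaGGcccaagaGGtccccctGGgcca
Col15a1 (chr4:47283786-47283845): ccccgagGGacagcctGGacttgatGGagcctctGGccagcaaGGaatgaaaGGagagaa
Col25a1 (chr3:130270497-130270556): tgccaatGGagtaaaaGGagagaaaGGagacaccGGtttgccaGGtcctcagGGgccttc
The runs hold 3, 4, 6 and 6 GG pairs in this order, and the coordinates of the Col13a1 probe span more bases than the 60 of the probe itself.

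Most of the members gave little signal in these livers. A signal well above background on all 15 arrays was seen for 14 of 74 members (18.9%), against 8493 of all 22032 genes (38.5%), and 29 members reached that level on no array. The 14 were Col1a2, Col3a1, Col5a3, Col4a1, Col4a2, Col6a1, Col14a1, Col16a1, Col18a1, Mmp14, Mmp15, Mmp19, Timp2 and Timp3. Among the MMPs, 12 of 23 were above background on no array, including Mmp7 (matrilysin), Mmp9 (a gelatinase), Mmp12 (the macrophage metalloelastase) and Mmp13 (the main rodent interstitial collagenase). Lox itself was above background on no array, and Col5a2, which co-assembles into collagen I fibrils, on none either. Mmp8, the neutrophil collagenase, passed on 1 of 4, 0 of 5 and 1 of 6 arrays of C, T and G. For a gene above background on no array of a group, the level there is only a bound.

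**Figure D1:**
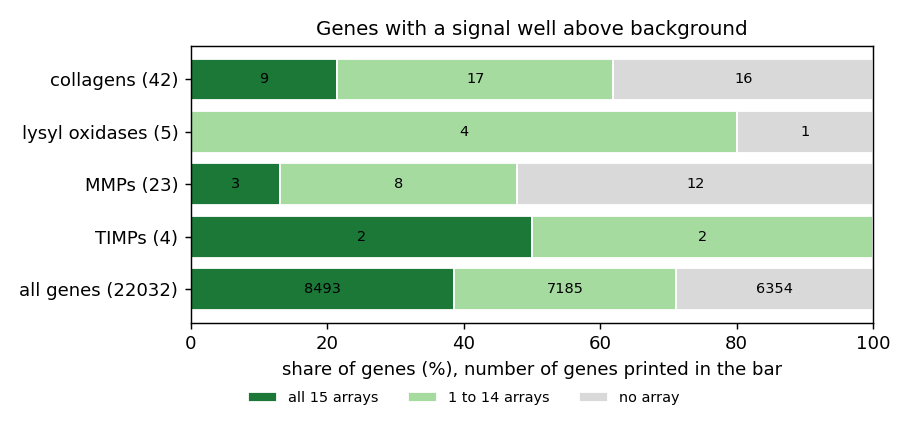
Share of genes (x axis, %) with a signal well above background on all 15 arrays, on some or on none, for each class and for all genes, with the number of genes printed in each bar. TIMPs have the highest share on all arrays (2 of 4), lysyl oxidases have none, and 12 of 23 MMPs were above background on no array.

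The first comparison, T against C, asks how livers exposed to DEN differed from control livers in these genes at week 35. Of 74 members, 1 was called at an adjusted p under 0.05 (limma, Benjamini-Hochberg over all genes), the transmembrane collagen Col13a1, which was lower in T; over all genes 525 of 22032 were called (2.38%; 1.22% higher and 1.17% lower). At an unadjusted p under 0.05, 1 member was higher and 7 were lower, 10.8% of the members beside 20.3% of all genes (10.8% higher and 9.48% lower). Values of the 2 groups did not overlap for 1 member that was higher in T, Col20a1, and 4 that were lower, Col13a1, Col11a2, Col5a1 and Col25a1, while 19.1% of all genes were separated in this way (10.5% higher and 8.61% lower). The median log2 difference was -0.03 over the members and 0.01 over all genes. By class it was -0.04 for collagens, -0.01 for MMPs, -0.14 for TIMPs and -0.03 for lysyl oxidases.

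Col13a1 is a collagen of the cell surface, anchored in the membrane. Its log2 intensity was 6.24, 6.40 and 6.40 in C1 to C3 and 5.94, 5.92, 6.05 and 5.98 in T1 to T4. Every C mouse lay above every T mouse. In G the lowest, median and highest values were 5.95, 6.22 and 6.33, a range that overlapped both other groups. The fitted T against C difference was -0.37 ± 0.09 (SE; 95% interval -0.56 to -0.19, adjusted p = 0.0439). The probe was well above background on 2 of 4 C arrays, 0 of 5 T arrays and 3 of 6 G arrays. The ratio of group means was therefore bounded by the detection limit in T, at 1.06-fold higher in C. This bound takes no account of the spread between mice. The call was lost when any 1 of 9 of the 13 mice was left out (C1, C2, C3, T1, T2, T3, T4, G1 or G4; adjusted p from 0.0516 to 0.109), and in the fits within 1 slide, where the difference was -0.51 (first slide, adjusted p = 0.141) and -0.29 (second slide, adjusted p = 0.228).

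The collagens with the next smallest p were fibrillar chains, which did not pass. Col11a2, a chain of collagen XI that seeds thin fibrils, read 6.81, 6.51 and 6.41 in C1 to C3 and 6.29, 6.28, 6.22 and 6.26 in T1 to T4, a difference of -0.32 ± 0.08 (adjusted p = 0.0673). Without C3 it was called (-0.40, adjusted p = 0.0429). Without C1 it was -0.20 and under median scaling -0.13, both at an adjusted p of 0.203. Col5a1, the collagen V chain that sets fibril diameter, read 6.61, 6.45 and 6.50 in C and 6.40, 6.28, 6.28 and 6.22 in T, a difference of -0.22 ± 0.08 (adjusted p = 0.152). In both genes every T mouse lay below every C mouse, yet over all genes 8.61% showed that order. Col25a1, a transmembrane collagen best known from neurons, was chosen after its values were seen: it read 6.07 to 6.17 in C and 5.96 to 6.0 in T (adjusted p = 0.217). Its 4 probes disagreed, at -0.13, -0.44, -0.05 and 0.05. The bound on its ratio of group means, 1.25-fold higher in C, rests on the brightest probe alone, printed above, at -0.44. Col20a1, a fibril-associated collagen, read 6.23 to 6.28 in C and 6.31 to 6.54 in T (0.12 ± 0.07, adjusted p = 0.361).

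The interstitial collagens spread widely between mice. Col1a1, the major chain of collagen I, was at 7.65, 7.05 and 6.52 in C1 to C3 and at 7.05, 6.93, 6.86 and 6.64 in T1 to T4. Its partner chain Col1a2 was at 9.75, 9.04 and 8.27 in C and at 8.68, 8.33, 8.39 and 7.84 in T. Mouse C1 was the highest and T4 the lowest of these groups for Col1a2, and the groups overlapped. The differences were -0.21 ± 0.26 for Col1a1 (95% interval -0.76 to 0.35, adjusted p = 0.713) and -0.71 ± 0.35 for Col1a2 (-1.47 to 0.05, adjusted p = 0.283). Without C1 they moved to 0.08 and -0.34, and under median scaling, which shifted the median of all genes to 0.12, both turned positive (0.24 and 0.14).

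Col3a1, the collagen III chain of reticular fibrils, was at 8.10, 7.84 and 7.46 in C and 7.88, 7.35, 7.59 and 7.17 in T (-0.30 ± 0.23, adjusted p = 0.522). Col14a1, which decorates the surface of fibrils, was at 7.77, 7.27 and 7.45 in C and at 7.27, 6.95, 7.31 and 7.07 in T (-0.35 ± 0.16, adjusted p = 0.235). Col6a1, of the beaded filaments that surround cells, differed by -0.18 ± 0.12 (adjusted p = 0.436). None of these passed the test, and each turned positive under median scaling (0.34, 0.02 and 0.21). As a group, 9 of 11 fibrillar collagen genes had a negative difference, beside 10552 of all 22032 genes, with a median of -0.21, and none was called. Of these 11, 4 were above background on no array and 4 on some arrays only. All 4 transmembrane collagens also had a negative difference, with a median of -0.11. None of the 4 was above background on any T array, so their T levels are only bounds, and Col17a1 was above background on no array.

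Of the 6 collagen IV genes of the basement membrane, 4 had a positive and 2 a negative difference, with a median of 0.04. Col4a1 was at 7.24, 7.11 and 6.74 in C and 7.27, 7.02, 6.83 and 6.87 in T (-0.04, 95% interval -0.29 to 0.22, adjusted p = 0.911). Col4a2, the other chain of the common collagen IV molecule, differed by 0.05 (interval -0.21 to 0.31). It was called only under median scaling (0.59, adjusted p = 0.0434), where 2832 of all 22032 genes were. Col18a1, the source of endostatin, made in liver largely by hepatocytes, was at 12.65, 12.63 and 12.80 in C and at 12.68, 12.37, 12.63 and 12.23 in T (-0.22 ± 0.12, adjusted p = 0.359). Over 32 alternative settings the Col18a1 difference ran from -0.43 to 0.78, keeping its sign in 31. Col15a1, a relative of Col18a1 in capillary basement membranes, differed by 0.03 ± 0.07.

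Of the proteases, the groups overlapped for the 3 that were measured on all arrays. Mmp19, a stromal protease that cuts basement membrane proteins, was at 7.01, 7.08 and 7.13 in C and 7.16, 7.47, 7.09 and 7.35 in T (0.20 ± 0.09, adjusted p = 0.248). Mmp14, the membrane-bound activator of pro-MMP2, read 6.93, 7.25 and 7.10 in C and 7.05, 7.51, 7.08 and 7.11 in T, where T2 stood alone above the rest (0.09 ± 0.15, adjusted p = 0.787). Mmp15, another membrane-type enzyme, differed by -0.03 ± 0.15. Under median scaling Mmp19 (0.62, adjusted p = 0.03) and Mmp14 (0.52, adjusted p = 0.0424) were called, beside 2832 of all 22032 genes. Mmp2, the gelatinase of stellate cells, was above background on no C or T array. Mmp1b, a collagenase, differed by -0.20 ± 0.08 (adjusted p = 0.206), was above background on 1 C array and no T array, and allows no fold. Mmp27 was above background on 3 C arrays and no T array. The bound on its ratio of group means was 1.20-fold higher in C by its brightest probe, yet the gene's 2 probes disagreed, at -0.41 and 0.18.

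Timp1, the inhibitor that is induced in injured liver, was at 6.21, 5.99 and 6.01 in C1 to C3 and at 6.22, 6.67, 6.17 and 6.22 in T1 to T4. It was well above background on 0 of 4 C arrays, on 1 of 5 T arrays, that of T2, and on 1 of 6 G arrays. The fitted difference was 0.25 ± 0.11 (adjusted p = 0.227), became 0.14 without T2, and allows no fold. In T2 the neutrophil gene S100a9 (10.03, against 7.55 to 8.84 in the other T mice) and the pancreatic amylase gene Amy2a5 (9.51, against 8.18 to 8.24) were also the highest of their group; the part of these in the Timp1 value was not tested. Timp2 and Timp3, the matrix-bound inhibitors, differed by -0.14 ± 0.16 and -0.17 ± 0.12, and by 0.46 and 0.54 under median scaling. Timp4 was above background on 1 C array only.

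Among the lysyl oxidases, which were dim throughout, Loxl2, known for cross-linking in liver fibrosis, differed by -0.02 ± 0.07 (95% interval -0.18 to 0.14). Over 32 alternative settings the Loxl2 difference ran from -0.44 to 0.14, so this interval does not cover the choice of processing. Loxl4 was at 6.47, 5.98 and 6.12 in C and between 5.86 and 6.0 in T, with a signal above background on 2 C arrays and on no T or G array. It did not pass the test (-0.23 ± 0.09, adjusted p = 0.181). The bound on its ratio of group means was 1.07-fold higher in C than in T, while C2 lay within the T range. Loxl1 and Loxl3 differed by -0.09 and -0.03, and Lox was above background on no array.

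**Figure D2:**
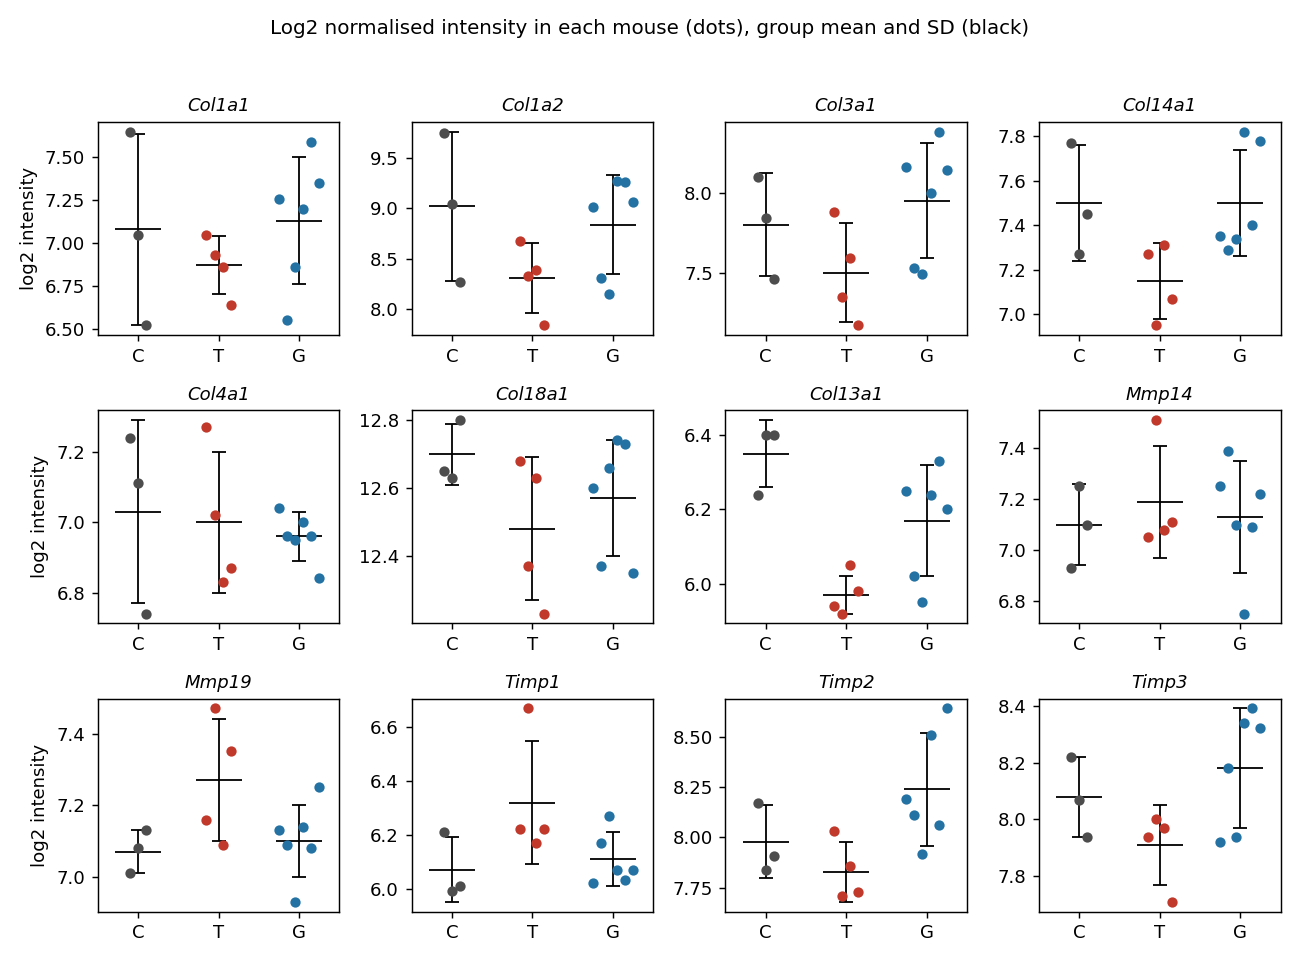
Log2 normalised intensity (y axis, a separate scale for each gene) of 12 members in each mouse of groups C, T and G (dots), with the group mean and SD in black. Col13a1 is separated between C and T, the interstitial collagens overlap in all groups, and T2 stands above the other T mice for Timp1 (6.67) and Mmp14 (7.51).

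The second comparison, G against T, asks whether the Gas1 plasmid altered these genes in livers exposed to DEN. No member was called, where 28 of 22032 genes were (0.127%; 0.0272% higher and 0.0999% lower). At an unadjusted p under 0.05, 9 members were higher in G and 4 were lower, 17.6% of the members beside 10.9% of all genes (4.13% higher and 6.73% lower). The 9 were the collagens Col3a1, Col5a1, Col13a1, Col14a1, Col17a1 and Col25a1, the gelatinase Mmp2, and Timp2 and Timp3, and the 4 were Col15a1, Col20a1, Mmp19 and Timp1; Col17a1 was above background on no array. Groups did not overlap for 2 members higher in G (Col25a1 and Mmp2, the latter above background on 1 array) and 1 lower (Col15a1), beside 3.13% of all genes (1.09% higher and 2.03% lower). The median difference was 0.01 over the members and -0.01 over all genes. It was 0.14 over the 11 fibrillar collagens, of which 9 had a positive value, beside 10147 of all 22032 genes.

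Timp2 had the smallest p of the inhibitors. In G its lowest, median and highest values were 7.92, 8.15 and 8.64, against 8.03, 7.71, 7.86 and 7.73 in T1 to T4. The ranges overlapped only through T1 and G3. The difference was 0.41 ± 0.13 (95% interval 0.12 to 0.70, adjusted p = 0.278). Both probes of the gene gave the same sign, 0.55 ± 0.17 and 0.32 ± 0.12, while a plain mean of the probes gave 0.11. Timp3, which stays bound to the matrix, ran from 7.92 through 8.25 to 8.39 in G and lay at 7.94, 8.0, 7.97 and 7.71 in T (0.28 ± 0.10, adjusted p = 0.361). Timp1 was lower in value in G (-0.21 ± 0.09, adjusted p = 0.433), and this became -0.10 without T2.

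The interstitial collagens were higher in value in G than in T, and none passed the test. Col1a2 had 8.15, 9.04 and 9.27 as lowest, median and highest values in G, a difference from T of 0.53 ± 0.30 (95% interval -0.11 to 1.18, adjusted p = 0.552). Col1a1 had 6.55, 7.23 and 7.59 (0.26 ± 0.22, adjusted p = 0.71). Col3a1 had 7.49, 8.07 and 8.38 (0.45 ± 0.20, interval 0.02 to 0.88, adjusted p = 0.43). In each of these 3 genes G2 and G3 were the 2 lowest G mice. Col14a1 differed by 0.34 ± 0.13 (adjusted p = 0.365), Col6a1 by 0.22 ± 0.10 (adjusted p = 0.468) and Col5a1 by 0.18 ± 0.07 (adjusted p = 0.376). The sign of these 6 differences was positive in every alternative run. Within the first slide Col1a2 differed by 0.79 and Col3a1 by 0.64, and within the second by 0.53 and 0.45.

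Both comparisons share the T mice, so a low value in T gives a negative difference in the first and a positive one in the second. For Col1a2 the group means were 9.02 ± 0.74 in C (SD, n = 3), 8.31 ± 0.35 in T (n = 4) and 8.84 ± 0.49 in G (n = 6). For Col14a1 they were 7.50 ± 0.26, 7.15 ± 0.17 and 7.50 ± 0.24. Col5a3, a minor collagen V chain shown since it was detected on all arrays and not by the rule for named genes, had 7.85 ± 0.40, 7.39 ± 0.81 and 8.08 ± 0.60. Its spread in T came from T1, at 8.58 against 6.80 to 7.15 in the other 3.

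A few members ran the other way. Col15a1 was at 6.20, 6.33, 6.19 and 6.40 in T1 to T4 and at 6.0, 6.10 and 6.14 (lowest, median, highest) in G, so that every G mouse lay below every T mouse. The difference was -0.18 ± 0.06 (adjusted p = 0.226), and the probe printed above, the only one of its 3 that was above background, gave -0.37 ± 0.14. Col20a1 differed by -0.18 ± 0.06 (adjusted p = 0.271), which became -0.12 without T1. Mmp19 differed by -0.17 ± 0.08 (adjusted p = 0.46) and Mmp14 by -0.05 ± 0.12. Mmp15 was higher in value by 0.16 ± 0.13. Mmp2 read 6.04 to 6.18 in G and 5.94 to 5.99 in T, with 1 of 6 G arrays above background, and allows no fold. Among the collagen IV chains the differences were -0.04 (interval -0.26 to 0.18) for Col4a1 and -0.07 (-0.29 to 0.15) for Col4a2, and for Col18a1 0.10 (-0.13 to 0.32). The lysyl oxidases differed by -0.07 to 0.08.

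In the third comparison, G against C, no member was called, beside 94 of 22032 genes (0.427%; 0.177% higher and 0.25% lower), and at an unadjusted p under 0.05 none was higher and 4 were lower (5.41%, beside 13.2% of all genes, of which 6.17% higher and 7.02% lower). The median difference was -0.02 over the members and 0 over all genes. Col1a1 differed by 0.06 ± 0.24, Col1a2 by -0.18 ± 0.33 and Col3a1 by 0.15 ± 0.22. Timp2 differed by 0.26 ± 0.15 (adjusted p = 0.477). Loxl4, Col15a1, Col13a1 and Col11a2 were the 4 lower ones, at -0.24, -0.15, -0.18 and -0.17, with adjusted p from 0.25 to 0.37. Groups did not overlap for 1 member, the stromelysin Mmp10, which was above background on no array, while 5.86% of all genes were separated (2.85% higher and 3.01% lower).

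**Figure D3:**
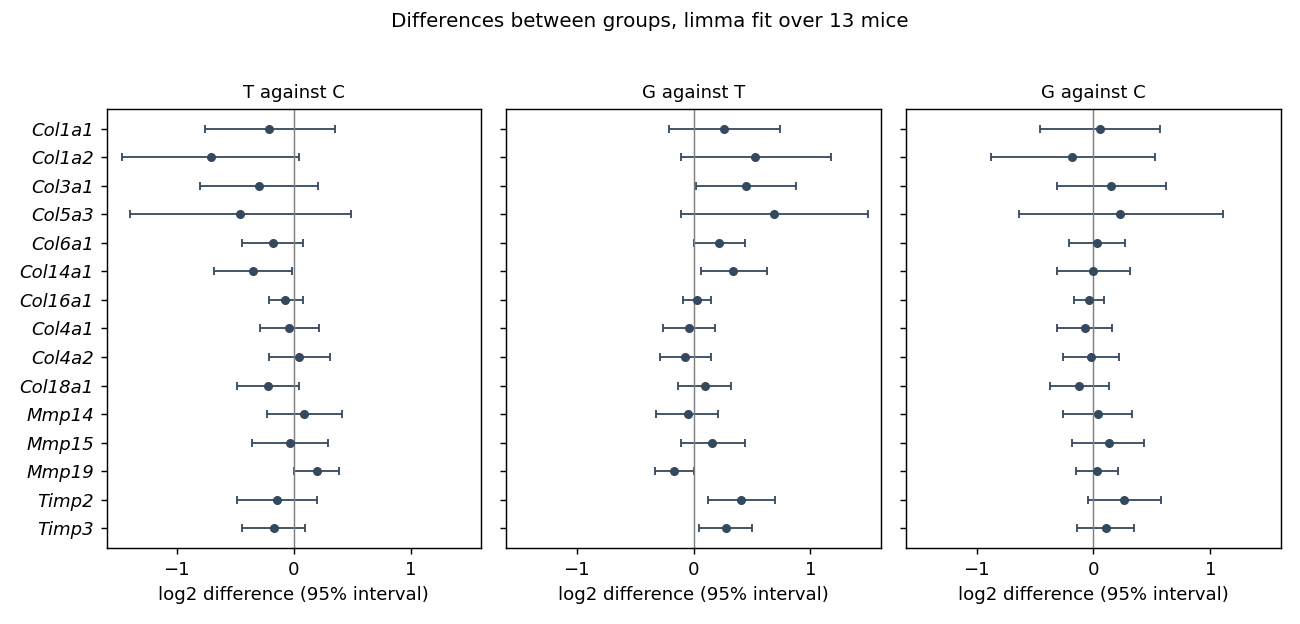
Log2 differences (x axis) with 95% intervals from the limma fit for Col1a1 and the 14 members measured on all arrays, in the 3 comparisons. Intervals of the interstitial collagens are wide, that of Col1a2 in T against C runs from -1.47 to 0.05, and those of Timp2 and Timp3 in G against T lie above 0 without passing the adjusted threshold.

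Mice of the same group differed widely in the interstitial collagens. Each mouse's deviation from its group mean in Col1a2 was set against that in every other member measured on all arrays, in Col1a1 and in the number of spots above background, which gave 15 relations over 13 mice, each tested by exact permutation within groups and adjusted over the 15. Col1a2 and Col1a1 deviated together (Pearson's r = 0.93, permutation p = 0.000907, adjusted 0.0068; Spearman's rho = 0.92, permutation p = 0.00148, adjusted 0.0111), and so did Col1a2 and Col3a1 (r = 0.91, permutation p = 0.000347, adjusted 0.0052; rho = 0.86, permutation p = 0.00131, adjusted 0.0111). Without C3 and G3, the mice farthest from the median of Col1a2, r was 0.92 and 0.88. Among the mice with an array on the first slide r was 0.91 for both genes, and on the second slide 0.97 and 0.94. No other relation passed the adjustment: r was 0.70 with Timp3 (permutation p = 0.0176, adjusted 0.0754; rho = 0.74), 0.69 with Col6a1 (adjusted 0.11; rho = 0.70), 0.13 with Col5a3 (adjusted 0.749; rho = 0.24) and 0.14 with the number of spots above background (adjusted 0.75; rho = 0.25). Without the same 2 mice, those with Timp3 and Col6a1 became 0.56 and 0.65. Those with Col5a3 and the number of spots above background became 0.53 and 0.55. On the first slide these last 2 were -0.57 and 0.02, and on the second 0.32 and 0.01.

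The mice at the ends were C1 with 0.73 and C3 with -0.75 in Col1a2, T4 with -0.47, and G2 and G3 with -0.53 and -0.69. C1 was the highest C mouse for 10 of the 14 members measured on all arrays and C3 the lowest for 7. Among T mice, T1 was the highest for 7 of 14. Mouse G6 had the highest desmin in its group (Des 8.58, against 6.13 to 6.62 in the other G mice) and the highest Acta2 (8.30, against 6.54 to 7.21), both markers of stellate cells and of smooth muscle. Its Col1a2 deviated by 0.21. Other stellate cell markers are not given for G6, and a relation of these cells to Col1a2 was not tested.

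**Figure D4:**
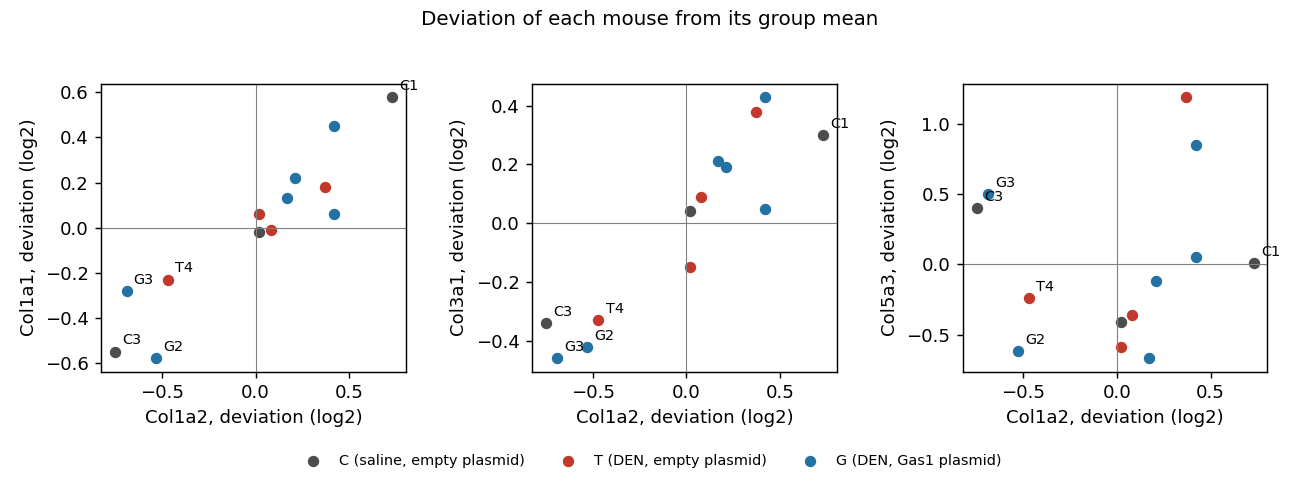
Deviation of each mouse from its group mean on the log2 scale, Col1a2 on the x axis against Col1a1, Col3a1 and Col5a3 on the y axes, coloured by group. Col1a1 and Col3a1 follow Col1a2 along a line (r = 0.93 and 0.91, n = 13) and Col5a3 does so less (r = 0.13, or 0.53 without C3 and G3).

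For the pair Col1a2 and Col3a1, whose values moved together over mice, the 120 bases before the RefSeq start site are shown (GRCm38.p6, plus strand for both), with CCAAT and TATAA, on either strand, in capitals.
Col1a2 (chr6:4505498-4505617): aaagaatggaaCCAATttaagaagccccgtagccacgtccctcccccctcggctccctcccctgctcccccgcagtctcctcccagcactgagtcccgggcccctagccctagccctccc
Col3a1 (chr1:45311418-45311537): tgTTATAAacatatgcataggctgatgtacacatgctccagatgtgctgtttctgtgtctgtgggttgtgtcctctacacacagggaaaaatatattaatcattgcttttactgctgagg
The Col1a2 stretch holds CCAAT and a run of pyrimidines, while that of Col3a1 holds TATAA, where both strands overlap in TTATAA, and no CCAAT. Over 250 bases upstream, CCAAT was found in 17 of 57 members with an entry (29.8%) and in 34.5% of 27025 genes, and TATAA in 16 (28.1%) and in 23.5%. RefSeq entries for Col1a1 and Col14a1 were not used here.

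Genes that act with the members were described from 5 lists of 100 genes in all: enzymes of collagen biosynthesis and processing, collagen receptors, other matrix proteins, activators and inhibitors of proteases, and fibrogenic signalling. The lists were chosen with earlier results of these data known. In T against C, 7 of the 100 were called, 4 higher and 3 lower, and 41 had an unadjusted p under 0.05, beside 2.38% and 20.3% of all genes. Among genes well above background on all arrays these shares were 3.97% and 27%. The count of 7 fell to 0 without C1, C2 or T3 and to 1 without T2 or T4. The median difference was -0.03. The medians of the 5 lists ran from -0.06 to 0.13.

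Among the biosynthesis enzymes, 1 of 25 was called. Glt25d2, which adds galactose to collagen hydroxylysines, was at 5.99, 6.29 and 6.31 in C and at 6.51, 6.58, 6.63 and 6.64 in T, a difference of 0.39 ± 0.08 (adjusted p = 0.0286). Every T mouse lay above every C mouse. Its counterpart Glt25d1 differed by -0.36 ± 0.13 (adjusted p = 0.152). Adamts2, which trims the amino propeptide of procollagen, differed by -0.25 ± 0.06 (adjusted p = 0.0541). Ppib, the proline isomerase of the collagen folding complex, differed by 0.41 ± 0.14 (adjusted p = 0.134), and Mia3, which helps load procollagen for export from the endoplasmic reticulum, by 0.36 ± 0.12 (adjusted p = 0.116).

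Of 30 other matrix proteins, 2 rose and 1 fell. Lama5, a laminin chain of mature basement membranes, rose by 0.52 ± 0.10 (adjusted p = 0.0264), from 6.20, 6.28 and 6.59 in C to 6.85, 6.93, 6.88 and 6.83 in T. Nid1, which ties laminin to collagen IV, rose by 0.42 ± 0.10 (adjusted p = 0.0472). Fbn2, a microfibril protein, fell by 0.28 on the log2 scale (adjusted p = 0.049) at signals above background on 2 C arrays and no T array. Lamc1, the common laminin gamma chain, differed by -0.24 ± 0.06 (adjusted p = 0.0644) and Sparc, a collagen-binding matricellular protein, by 0.34 ± 0.10 (adjusted p = 0.0929).

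Of 12 protease regulators, Tfpi2, a Kunitz-type inhibitor of plasmin found in the matrix, fell by 0.67 on the log2 scale (adjusted p = 0.018), from 7.93, 8.18 and 7.83 in C to 7.46, 7.22, 7.20 and 7.37 in T. Plat and Plg, of the plasminogen system, differed by -0.12 and 0.11. Of 23 fibrogenic signalling genes, Pdgfc, a growth factor for stellate cells and fibroblasts, fell by 0.61 on the log2 scale (adjusted p = 0.0364), from 7.50, 7.06 and 7.26 to 6.94, 6.54, 6.66 and 6.54. Tgfbi, a matrix protein induced by TGF-beta, differed by -0.60 ± 0.20 (adjusted p = 0.116), Ltbp4, which binds latent TGF-beta, by -0.48 ± 0.13 (adjusted p = 0.0684) and Smad3 by 0.24 ± 0.11 (adjusted p = 0.258). No collagen receptor passed, with Itgb1, the shared beta chain of the collagen-binding integrins, at 0.44 ± 0.12 (adjusted p = 0.0627), Gp6 at -0.39 ± 0.11 and Ddr1 at 0.25 ± 0.07, the latter above background on no array.

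In G against T and in G against C none of the 100 was called (limma), beside 0.127% and 0.427% of all genes, and 18 and 21 had an unadjusted p under 0.05, beside 10.9% and 13.2% of all genes. Among genes well above background on all arrays the last 2 shares were 16.4% and 20.9%. In G against T the smallest adjusted p belonged to Glt25d2 (-0.29 ± 0.07, adjusted p = 0.116) and Ppib (-0.53 ± 0.12, adjusted p = 0.119), both of which had higher values in T than in C. Of the other named genes, Lamc1 (0.19 ± 0.05, adjusted p = 0.181), Plat (0.20 ± 0.06, adjusted p = 0.204), Nid1 (-0.25 ± 0.08, adjusted p = 0.294) and Tgfbi (0.49 ± 0.17, adjusted p = 0.298) did not pass either, nor did Plg (-0.24 ± 0.10) and Itga11 (-0.15 ± 0.07), at adjusted p of 0.42 and 0.451. In G against C, Tfpi2 and Pdgfc each differed by -0.49 (adjusted p = 0.077 and 0.108).

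The markers of the cells that make or surround the matrix give the setting of these values. Of 12 markers of stellate cells and myofibroblasts, 1 was called in T against C, where 2.38% of all genes were. This was Ngfr, at 7.68, 7.81 and 7.68 in C and 7.36, 6.79, 7.26 and 6.74 in T, which fell by 0.69 on the log2 scale (adjusted p = 0.0446). Of the 12, 4 had a positive and 8 a negative difference, up to 0.42, with a median of -0.02. The mean of the 12 log2 values ran from 7.08 to 7.26 in C, 6.97 to 7.13 in T and 6.94 to 7.45 in G, with Gfap at background on every array. For the 7 macrophage markers it ran from 7.41 to 7.68, 7.62 to 7.83 and 7.56 to 7.98, with 1 called (Emr1, higher in T). For the 6 sinusoidal endothelial markers it ran from 7.75 to 8.03, 7.72 to 8.18 and 7.93 to 8.09, with none called. For the 6 cholangiocyte markers, of which 1 was above background on all arrays, it ran from 6.48 to 6.57, 6.33 to 6.46 and 6.39 to 6.68. There C and T did not overlap, and none was called. The part of these cells in the collagen and TIMP values was not tested.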

How the data were processed

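RNA counted here as that of 13 mouse livers was hybridised to 15 1-colour Agilent 8x60K arrays. The deposited scanner files hold intensity values per spot from Feature Extraction 10.7.3.1, with flags, and the authors also deposited a table of log2 values normalized by them, which lay within 0.05 of the values rebuilt here for 99.2% of gene values. Mean signals were corrected with normexp (offset 50), set to log2, with outlier spots missing (218 to 3692 per array), and quantile normalized over the 59305 non-control spots. Spots were averaged per probe, centred probes were averaged per gene symbol, and arrays of 1 RNA code were averaged. limma 3.58.1 was fitted with 1 mean per group over 13 mice (lmFit, eBayes), with Benjamini-Hochberg adjustment over 22032 genes and calls at an adjusted p under 0.05. The sample titles number all 15 arrays separately, and p-values measure the spread between the 13 mice as counted here.

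"Well above background" is the scanner flag of that name. Where no array of a group reached it, the level of that group is only a bound, computed as the brighter group's mean of its brightest probe over the dim group's mean of, per array, the higher of that probe and the lowest signal well above background, with no fold where this is under 1. Such a ratio of group means takes no account of the spread between mice and is no test. In a simulation of T against C over 22032 genes, full changes were added to 50 randomly chosen genes per fold. Noise was normal at each gene's own spread. Of these changes, 72% at 1.5-fold, 94% at 2-fold and 98% at 4-fold were called. The chosen genes were not the members and no fold was lost near background, so these shares do not give the power for the members. Col1a2, at -0.71 ± 0.35, was not called (limma, adjusted p = 0.283). The number of arrays limits the precision. Gene symbols are those of the array design, and all 74 member symbols are current in RefSeq; 57 had a promoter entry.

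Members and gene lists were chosen with earlier results of these data known. Named members were those called, the 3 collagens and 3 MMPs of smallest p per comparison, all TIMPs and lysyl oxidases, a list of main collagens and MMPs, and any detected throughout 1 group and nowhere in another (0 members); pathway genes were those called and the 2 of smallest p per list and comparison. The values of 1 called pathway gene are not reported here. The replicate number of the labels was tried as a block: deviations of same-numbered mice correlated between -0.31 and 0.25 over genes, so the numbers were not taken to pair the mice. Of the other alternatives (19 settings, and each of 13 mice left out), effects are given at the end. In the setting with 14 mice only the C pair was averaged.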

Additional observations from a re-analysis of the deposited data

Results flagged for a closer look

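Among the named members, 6 of 70 sets of values (35 genes in groups T and G; group C has 3 mice and was not tested) held 1 mouse that stood apart from the others by Dixon's criterion, where chance gives about 1 in 20. In group T, T2 was the highest mouse for Timp1 (6.67, next 6.22) and Mmp14 (7.51, next 7.11) and the lowest for Loxl1 (6.03, next 6.12), while T1 was the highest for Col20a1 (6.54, next 6.34) and the lowest for Mmp12 (5.89, next 5.98). In group G, G4 was the highest for Loxl3 (6.32, next 6.21). Loxl1 in T2 and Mmp12 in T1 were not well above background. Without T2, the T against C difference of Timp1 was 0.14 in place of 0.25 and that of Mmp14 was -0.02 in place of 0.09.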

How the results depend on the processing

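The count of 1 called member in T against C became 0 with the processed signal and 75th percentile scaling, with cyclic loess and with slide as a term. It was also 0 on the first slide, on the second slide, and with the methods' t-test in either form. With only probes well above background on all arrays of a group (18 members left) it was 0 as well. The count became 3 under median scaling (Col4a2, Mmp14 and Mmp19, all higher in T), beside 2832 of all 22032 genes. With 15 arrays as separate mice it was 3, beside 1947 of all genes, and with 14 mice 2, beside 1279. With a mouse left out the count was 0 to 1. Col13a1 kept its sign in the 31 settings that tested it, from -2.54 to -0.28, with adjusted p from 0.00868 to 0.272. No member was called in G against T or G against C under any setting run, the methods' t-test included. With the replicate number as a block, although the numbers were not shown to pair the mice, the member count in T against C was 0 (Col13a1 -0.40, adjusted p = 0.0788) and that of pathway genes 2.

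The 7 pathway genes called in T against C became 0 with the processed signal, on either slide and in both t-tests, 1 with cyclic loess, 4 with only the 2 groups in the fit, 19 under median scaling and with 15 arrays as separate mice, 14 with 14 mice, and 0 to 10 with a mouse left out (0 without C1, C2 or T3, 1 without T2 or T4, 4 without G2 or G5, 10 without T1). In G against T the count of 0 became 2 with 15 arrays and 1 with 14 mice; in G against C it became 2 with 15 arrays and ran from 0 to 3 with a mouse left out (3 without C3, 1 without G4 or G6). Over all genes, the 525 calls of T against C ran from 0 (either t-test, 3846 and 2961 genes at an unadjusted p under 0.05) to 2832 (median scaling), the 28 of G against T from 1 to 263, and the 94 of G against C from 0 to 342; with a mouse left out they ran from 89 (without T3) to 761 (without T1), from 5 to 127 (without T1) and from 0 (without G3) to 182 (without C3). Median scaling moved the median of all genes to 0.12 and the processed signal to -0.40 in T against C. Causes were not tested. For dim members the size of a difference depended on the setting. With the processed signal, Col11a2, Col5a1 and Timp1 differed by -1.58, -1.35 and 1.02 in T against C, in place of -0.32, -0.22 and 0.25. A value near 0 in a dim gene therefore does not show that it was unchanged. Dim probes limit what can be said of most MMPs, Timp1 and the lysyl oxidases.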
